A study of Mus musculus with 32 samples.

Results

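The 10 neutrophil-associated genes were followed across 32 mouse tumours grown from KPC36 cells and treated with carbon ions or photons. They were Csf3r, S100a8, S100a9, Mmp8, Mmp9, Retnlg, Cebpe, Camp, Ngp and Ltf, which are 10 of the 55103 gene rows of the deposited count table. The set was put together as mature neutrophil genes, granule genes and the granule transcription factor Cebpe whose change differed between the beams, so its genes were chosen by a measured value, the difference between the carbon-ion and photon effects. Those 2 effects and their difference are therefore given below as descriptions, with no p-value for the 10 genes, and the calls of the fit over all genes are only counted. The tests concern the average of both irradiation effects and the average difference between the arms, which combine the same groups in other ways.

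KPC36 is a mouse pancreatic ductal adenocarcinoma line, and the labels give neither its genotype nor the strain, age or sex of the mice. Bulk RNA sequencing was performed on 4 groups of 8 tumours: untreated tumours of the carbon-ion arm (carbon controls), tumours treated with carbon ions, untreated tumours of the photon arm (photon controls) and tumours treated with photons. Collection is described for days 4 and 7, without saying which library belongs to which day, and no dose is given. Whether each library comes from its own mouse is not stated, so p-values measure the spread between these libraries. Replicate numbers below were given in deposition order within a group, only to name a library.

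Neutrophils mature in the bone marrow under granulocyte colony-stimulating factor, and they fill their granules in sequence: primary granules first, then secondary granules, then gelatinase granules. C/EBP epsilon, the product of Cebpe, drives the genes of secondary granules, and it is also required for the maturation of eosinophils. Circulating and tissue neutrophils have switched off most granule genes and carry Csf3r, Cxcr2, S100a8 and S100a9 instead. Several of these genes are not restricted to neutrophils: S100a8, S100a9 and Ltf are also made by epithelia, and Mmp9 by macrophages and tumour cells.

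The label was checked against further neutrophil genes, chosen for naming after their values were seen. Ly6g, the surface antigen that defines mouse neutrophils, had 0 to 5 counts and was at 0 in 20 of 32 libraries. Of the primary granule genes, Mpo had at most 9 counts, Elane was at 0 in 26 libraries, and the precursor gene Ms4a3 was at 0 in 30 libraries, whereas Prtn3, the serine protease proteinase 3, had 5 to 55 counts. Serpinb1a, Igsf6 and Cd63, of the same list, had at least 85 counts in every library. The secondary granule genes Camp and Ngp, both in the set, did not reach the filter on low counts, while Ltf, also in the set, had 16 to 586 counts. Csf3r and Cxcr2, the receptors of mature neutrophils, were detected in every library. Receptor and S100 transcripts were thus present in tumours where Ly6g, Mpo, Elane, Ms4a3, Camp and Ngp were at or near 0 in most libraries and Prtn3 and Ltf were not, so the genes are called by their names here and not taken as a measure of neutrophil number. In bulk tissue, fewer cells of a type and less RNA per cell cannot be told apart.

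The upstream sequences of 4 genes are shown because they can be read for the motif of the C/EBP family. They are the bases before the RefSeq transcription start on GRCm38.p6 (mm10), within a window of 250 bases and cut where the GENCODE gene begins, read 5′ to 3′ on the strand of the gene. Capitals mark matches to TTNNGNAA, a loose form of the C/EBP motif, on either strand.
S100a8: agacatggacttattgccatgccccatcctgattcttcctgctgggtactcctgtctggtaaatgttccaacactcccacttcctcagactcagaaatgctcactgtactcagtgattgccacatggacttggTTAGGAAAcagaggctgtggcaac
S100a9: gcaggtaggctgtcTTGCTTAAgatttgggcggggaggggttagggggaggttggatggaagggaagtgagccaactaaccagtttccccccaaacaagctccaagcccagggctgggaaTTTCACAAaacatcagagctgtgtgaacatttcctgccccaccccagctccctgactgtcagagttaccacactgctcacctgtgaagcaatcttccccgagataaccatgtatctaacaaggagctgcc
Retnlg: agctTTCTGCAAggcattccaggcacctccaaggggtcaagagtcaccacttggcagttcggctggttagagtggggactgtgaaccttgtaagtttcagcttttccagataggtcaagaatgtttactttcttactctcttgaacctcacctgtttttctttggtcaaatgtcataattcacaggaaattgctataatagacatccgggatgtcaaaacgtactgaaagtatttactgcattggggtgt
Ltf: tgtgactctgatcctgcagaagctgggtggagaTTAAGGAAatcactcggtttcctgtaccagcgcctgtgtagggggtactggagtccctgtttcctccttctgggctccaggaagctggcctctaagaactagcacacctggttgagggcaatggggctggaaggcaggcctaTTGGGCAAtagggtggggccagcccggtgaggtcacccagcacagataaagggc
These lie at chr3:90668821-90668977 (plus strand), chr3:90695722-90695971 (minus strand), chr16:48872358-48872607 (plus strand) and chr9:111019042-111019270 (plus strand). Of the 8 genes with an entry in the promoter table, 6 held at least 1 match in the full window of 250 bases, against 36.85% of all 32851 promoters. These were S100a8, S100a9, Mmp8, Retnlg, Ngp and Ltf. Csf3r and Camp held 0 matches and, like Mmp8 and Ngp, are not printed, so every printed sequence holds a match. GAGGAA, the core of the PU.1 motif, was found on either strand in 4 of 8, namely Csf3r, S100a8, Mmp8 and Ltf, against 23.25% of promoters. TATAAA was found in S100a8 alone, against 12.37%. With 8 promoters these shares describe the set only, and a match of these letters is not a binding site. Cebpe and Mmp9 had no entry and are not shown.

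By position, S100a8 (chr3:90668978-90670035) and S100a9 (chr3:90692632-90695721) are neighbours on opposite strands, 22596 bases apart with 0 protein-coding genes between them. Camp, Ngp and Ltf lie within one stretch of chromosome 9, and Mmp8 lies elsewhere on the same chromosome. Cebpe occupies chr14:54710360-54712174 on the minus strand and Retnlg chr16:48872621-48874496 on the plus strand. All 10 genes are protein-coding, and none overlaps another gene in the GENCODE annotation.

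Library totals ranged from 13891863 to 71645903 estimated counts, and expression is given as CPM, the count scaled to the library total after that total was multiplied by its TMM factor. At these scaled depths, 3 counts correspond to 0.0458 to 0.196 CPM, which is the level that a count of 0 still allows. Library titles begin with D or M, with no stated meaning: D occurs in 4 carbon controls and 3 carbon-treated libraries and in no photon library. Title numbers of photon controls and photon-treated libraries do not overlap, so photon treatment and title order cannot be told apart. A filter on low counts left 20474 genes, 8 of the 10 among them. Corrected for gene length, group means ran from 19.5 to 29.6 CPM per kilobase of exon for Mmp9, 4.33 to 13.1 for S100a8, 3.65 to 9.16 for S100a9 and 3.71 to 6.42 for Csf3r. The same per-length level was 0.883 to 4.39 for Retnlg, 0.387 to 1.18 for Ltf, 0.304 to 0.939 for Cebpe and 0.165 to 0.259 for Mmp8.

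Cebpe was higher after carbon ions and lower after photons than in the untreated tumours of the same arm. In the carbon controls its lowest, median and highest values were 0.384, 0.528 and 1.29 CPM, and in the carbon-treated tumours 0.595, 1.23 and 1.65 CPM. In the photon controls they were 0.630, 0.828 and 1.14 CPM, and in the photon-treated tumours 0.258, 0.357 and 0.527 CPM. All 8 carbon-treated libraries lay above the carbon control median, although the ranges overlapped. All 8 photon-treated libraries lay below every photon control, a separation seen in the downward direction for 0.269% of all tested genes. The mean was 0.668 ± 0.307 (SD, n = 8) in carbon controls and 1.17 ± 0.333 (n = 8) after carbon ions, and 0.856 ± 0.194 (n = 8) in photon controls and 0.378 ± 0.0925 (n = 8) after photons. The fitted log2 fold change was 0.81 (SE 0.24) for carbon ions and -1.15 (SE 0.25) for photons, a difference of 1.96 (SE 0.34).

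Cebpe is a low transcript, with 5 to 71 counts a library. The highest photon-treated value, 0.527 CPM, had an exact Poisson 95% interval of 0.334 to 0.791, and the lowest photon control, 0.630 CPM, one of 0.367 to 1.01, so the gap between these neighbours is within counting error (the intervals cover counting error only). In order of the medians, carbon-treated tumours came first, then photon controls, carbon controls and photon-treated tumours, and each neighbouring pair overlapped. Within title letters the carbon values were similar: the mean was 0.681 CPM in the 4 D-titled and 0.654 in the 4 M-titled carbon controls, and 1.25 in the 3 D-titled and 1.11 in the 5 M-titled carbon-treated libraries.

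**Figure D1:**
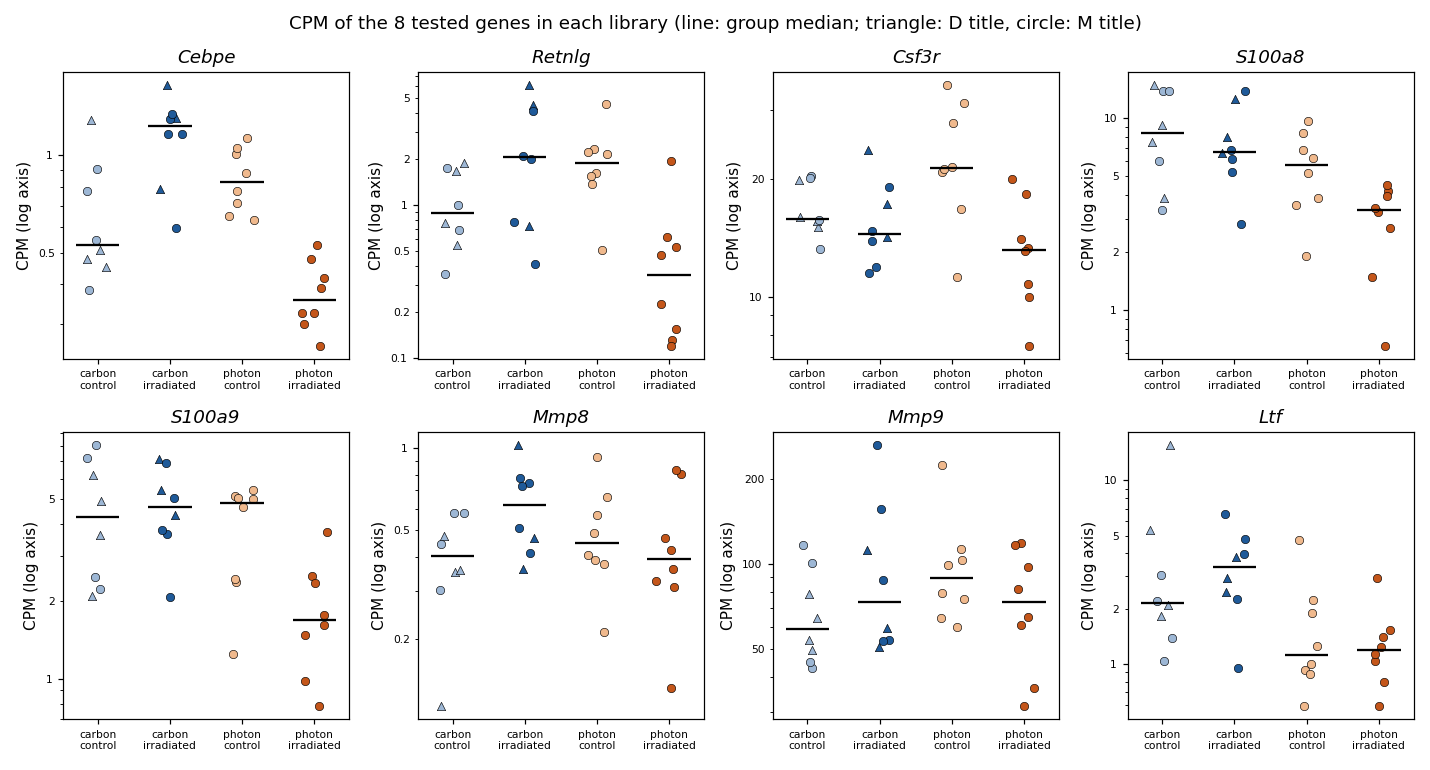
CPM of the 8 tested genes in each of the 32 libraries (log axis), by group; the line is the group median, triangles are D-titled and circles M-titled libraries. For Cebpe, all 8 photon-treated libraries lie below all photon controls, whereas the groups overlap for the other 7 genes.

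Retnlg, which encodes the secreted resistin-like gamma of myeloid cells, had the widest spread of log2 CPM among the tested genes after irradiation. In carbon controls the lowest, median and highest values were 0.355, 0.882 and 1.88 CPM, and in carbon-treated tumours 0.412, 2.05 and 6.13 CPM. In photon controls they were 0.508, 1.89 and 4.59 CPM, and in photon-treated tumours 0.12, 0.349 and 1.94 CPM. Of the carbon-treated libraries, 5 exceeded every carbon control and the other three lay below the control median, so the carbon-treated group was split. After photons, 5 of 8 libraries lay below every control and 1, photon-treated replicate 1, lay above the control median with 88 counts. The fitted log2 fold change was 1.27 (SE 0.52) for carbon ions and -1.89 (SE 0.55) for photons, a difference of 3.16 (SE 0.76). With 1 library left out, the photon value ranged from -2.58 (without photon-treated replicate 1) to -1.61 (without photon control replicate 1), and the difference from 2.84 (without carbon-treated replicate 3) to 3.84 (without photon-treated replicate 1).

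Csf3r, the receptor for granulocyte colony-stimulating factor, was lower after photons and little different after carbon ions. Its lowest, median and highest values were 13.3, 15.8 and 20.3 CPM in carbon controls and 11.5, 14.5 and 23.8 CPM after carbon ions. In photon controls they were 11.3, 21.4 and 34.8 CPM and after photons 7.5, 13.2 and 20.0 CPM. All 8 photon-treated libraries lay below the control median and 3 below every control. The log2 fold change was -0.11 (SE 0.19) for carbon ions and -0.79 (SE 0.19) for photons. Cxcr2, the chemokine receptor that guides neutrophils into tissue, had values of -0.11 (SE 0.20) and -0.93 (SE 0.20).

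S100a8 and S100a9 encode the subunits of calprotectin, the most abundant cytosolic protein of neutrophils. S100a8 had medians of 8.37 CPM in carbon controls (range 3.31 to 14.9), 6.69 after carbon ions (2.82 to 13.8), 5.69 in photon controls (1.91 to 9.68) and 3.31 after photons (0.653 to 4.47). S100a9 had medians of 4.27 CPM (2.09 to 8.09), 4.67 (2.07 to 7.14), 4.83 (1.25 to 5.43) and 1.70 (0.783 to 3.73) in the same order. For both genes all 8 photon-treated libraries were below the photon control median, 2 of them below every control, and the carbon groups overlapped almost entirely. The log2 fold changes were -0.22 (SE 0.35) and 0.06 (SE 0.32) for carbon ions, and -0.90 (SE 0.36) and -1.02 (SE 0.33) for photons. With 1 library left out, the carbon value ranged from -0.40 to -0.07 for S100a8 and from -0.05 to 0.22 for S100a9. The ratio of S100a8 to S100a9 on the log2 scale was 0.95 ± 0.49 (SD, n = 8) in carbon controls, 0.63 ± 0.20 (n = 8) after carbon ions, 0.53 ± 0.25 (n = 8) in photon controls and 0.60 ± 0.45 (n = 8) after photons.

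The metalloproteinases differed from the S100 genes in level and spread. Mmp9, gelatinase B, had medians of 59.2 CPM in carbon controls (range 42.9 to 116.6), 73.6 after carbon ions (50.8 to 263.7), 89.0 in photon controls (59.9 to 224.4) and 73.4 after photons (31.5 to 119.2). Its log2 fold change was 0.60 (SE 0.33) for carbon ions, which became 0.25 without carbon-treated replicate 8, and -0.43 (SE 0.33) for photons, which became -0.16 without photon control replicate 8. Mmp8, the neutrophil collagenase, had 4 to 44 counts a library and medians of 0.401, 0.617, 0.447 and 0.392 CPM in the order given above. Of the carbon-treated libraries, 7 of 8 lay above the carbon control median for Mmp8 and 4 above every control. Its log2 fold change was 0.64 (SE 0.33) for carbon ions and -0.14 (SE 0.33) for photons, the latter between -0.32 (without photon-treated replicate 2) and 0.04 (without photon control replicate 5).

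Ltf, the iron-binding lactoferrin of secondary granules, had fitted changes smaller than their standard errors for both beams. Its medians were 2.15 CPM in carbon controls (range 1.04 to 15.5), 3.39 after carbon ions (0.953 to 6.57), 1.12 in photon controls (0.590 to 4.70) and 1.19 after photons (0.593 to 2.94). The carbon controls were stretched by replicate 3, at 15.5 CPM. The log2 fold change was -0.22 (SE 0.47) for carbon ions and -0.35 (SE 0.48) for photons, and the carbon value was 0.53 without that library. Leaving out photon control replicate 2 turned the photon value to 0.10, and leaving out photon-treated replicate 7 gave -0.62. In the M-titled libraries alone the carbon value was 0.99 (SE 0.55), with means of 1.92 CPM in 4 carbon controls and 3.70 CPM in 5 carbon-treated tumours.

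Camp, which encodes the cathelicidin peptide, had 0 to 15 counts and was at 0 in 10 of 32 libraries. Ngp, a secondary granule protein of the cystatin family, had 0 to 69 counts and was at 0 in 3 libraries. Its 69 counts, 2.70 CPM, came from carbon control replicate 2, where no other library had more than 11. The same library had 25 counts of Elane (at most 1 elsewhere), 9 of Mpo (at most 6 elsewhere) and 5 of Ly6g (at most 4). It was not the highest alone for Camp, with 15 counts here and in 1 other library, nor for Ctsg, with 9 counts against 19 elsewhere. No fold change is given for Camp and Ngp, most of whose values lie at or near the level that a count of 0 allows.

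**Figure D2:**
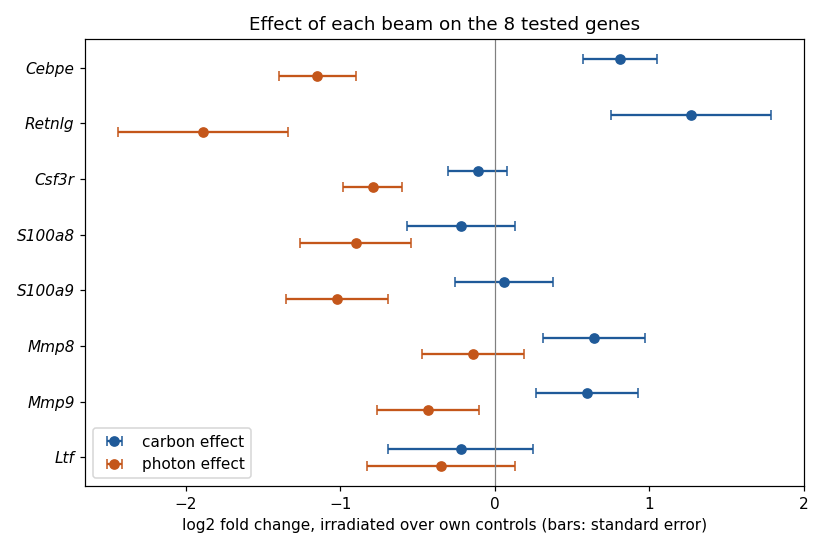
Log2 fold change of the 8 tested genes for each beam against its own untreated tumours; bars are standard errors. Cebpe and Retnlg lie on opposite sides of 0 for the 2 beams, at 0.81 and -1.15 and at 1.27 and -1.89.

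The counts that follow for each beam and for the difference are descriptions from which nothing is read, because the same values chose the genes. Of the 8 tested genes, 0 had an adjusted p under 0.05 (edgeR quasi-likelihood test, Benjamini-Hochberg over all genes) after carbon ions, where percent of all genes called was 0 (0 of 20474, with 1177 genes at an unadjusted p under 0.05 and 17 called by DESeq2). After photons 3 of 8, Csf3r, Retnlg and Cebpe, were called lower, beside 2.10% of all genes. When 1 library was left out, Csf3r was called in 31, Retnlg in 18 and Cebpe in 32 of 32 fits. The difference between beams was called for 1 of 8, Cebpe, beside 0.0781% of all genes called in either direction. In the 25 M-titled libraries alone 0 of 8 were called, beside 1 of 21134 genes. The fitted difference was positive in the 8 tested genes, with Ltf at 0.13 (SE 0.67) and at -0.32 without photon control replicate 2. The median over the 8 genes was 0.33 for carbon ions, -0.85 for photons and 0.91 for the difference, beside 0.01, 0.00 and 0.02 over all tested genes.

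Irradiation averaged over both beams gave no call among the 8 genes, although 6 of 8 values were negative. The comparison called 0.772% of all genes (158 of 20474). Csf3r had the smallest p, with a log2 fold change of -0.45 (SE 0.14, adjusted p = 0.104, edgeR), followed by S100a8 at -0.56 (SE 0.25, adjusted p = 0.291) and S100a9 at -0.48 (SE 0.23, adjusted p = 0.334). These 3 had an unadjusted p under 0.05, and DESeq2 called 0 of 8, beside 468 of 20474 genes. The value of Csf3r passed without carbon-treated replicate 3 or without photon control replicate 6, and its adjusted p ranged from 0.0434 to 0.179 over 38 alternatives. Cebpe stood at -0.17 (SE 0.17, adjusted p = 0.713) and Retnlg at -0.31 (SE 0.37, adjusted p = 0.782), since their values for each beam had opposite signs. With 1 library left out, Cebpe ranged from -0.21 to -0.07 and Retnlg from -0.65 to -0.17. Mmp8 at 0.25 (SE 0.23), Mmp9 at 0.08 (SE 0.24) and Ltf at -0.29 (SE 0.34) did not pass. The median over the 8 genes was -0.30, beside 0.01 over all tested genes.

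Between the arms, 4 of 8 genes were higher in the carbon-ion arm on the average of treated and untreated tumours, and 0 were lower. This comparison called 17.1% of all genes (2054 higher and 1454 lower, which became 1770 and 2014 with upper-quartile scaling). The comparison averages treated and untreated tumours, and these did not always differ the same way. For Cebpe the untreated tumours of the carbon-ion arm had the lower mean (0.668 against 0.856 CPM) and the treated ones the higher (1.17 against 0.378), the groups whose effects chose the gene. For S100a9 the order of the untreated tumours depended on the measure. Their medians were 4.27 CPM in the carbon-ion arm and 4.83 in the photon arm, but their means were 4.60 and 3.92 CPM. Ltf differed by 1.32 on the log2 scale (SE 0.34, adjusted p = 0.00747, edgeR), S100a8 by 1.01 (SE 0.25, adjusted p = 0.00617), S100a9 by 0.77 (SE 0.23, adjusted p = 0.0202) and Cebpe by 0.61 (SE 0.17, adjusted p = 0.0117). Retnlg at 0.66 (SE 0.37, adjusted p = 0.225) and Csf3r at -0.11 (SE 0.14, adjusted p = 0.619) did not pass, nor did Mmp8 at 0.04 (SE 0.23) and Mmp9 at -0.05 (SE 0.24). Retnlg passed in 1 of 38 alternatives, without photon-treated replicate 1, at 1.01 (adjusted p = 0.0482, edgeR). The median was 0.64 over the 8 genes, beside -0.01 over all tested genes. Among M-titled libraries alone 2 of 8 passed, S100a8 and Cebpe, beside 2596 of 21134 genes. With the title letter as a covariate only S100a8 passed, at an adjusted p of 0.0358 (edgeR), beside 2187 of 20474 genes. The arm cannot be told apart from when or where the arms were run.

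Within groups, the 8 genes did not vary as one unit. After each group mean was subtracted from log2 CPM, S100a8 and S100a9 had a Pearson correlation of 0.89 over the 32 libraries (Spearman 0.86), and each was the other's most similar gene among 20473. Cebpe and Retnlg had 0.70 (Spearman 0.71), and 0.61 to 0.87 within each group. Csf3r had 0.57 with S100a9, 0.54 with Mmp8 and 0.49 with S100a8, and Mmp8 had 0.46 with Mmp9. Within each group S100a8 and S100a9 had 0.82 to 0.98, Csf3r with S100a9 0.33 to 0.77 and Csf3r with Mmp8 0.13 to 0.98. Pooled over the groups, Cebpe had -0.01 with S100a8, -0.06 with S100a9, 0.19 with Csf3r and 0.00 with Ltf. The values near 0 pooled groups of opposite sign: Cebpe with S100a8 had 0.41 in carbon controls, -0.65 after carbon ions, -0.50 in photon controls and 0.45 after photons. In the same order Cebpe with S100a9 had 0.13, -0.51, -0.44 and 0.47, and Cebpe with Ltf ranged from -0.51 to 0.38. Each of these within-group values rests on 8 libraries. These are descriptions over libraries that share depth and tissue makeup. The correlation of Cebpe with Retnlg was 0.70 in the 25 M-titled libraries and 0.69 without the 2 libraries farthest from the median, and that of S100a8 with S100a9 was 0.92 and 0.87.

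**Figure D3:**
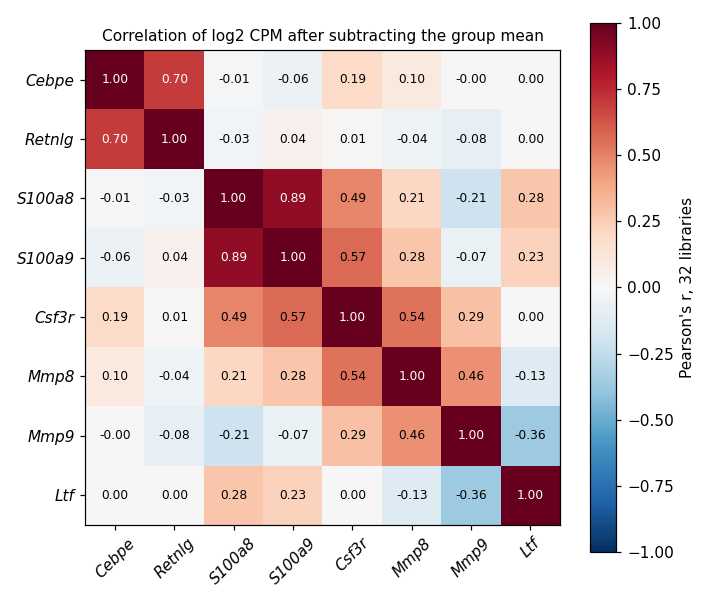
Pearson correlation of log2 CPM between the 8 tested genes after the group mean was subtracted, over 32 libraries. S100a8 with S100a9 (0.89) and Cebpe with Retnlg (0.70) are the highest pairs, and the genes of one pair are near 0 with those of the other when the groups are pooled.

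By the fixed rule, the 5 genes most like Cebpe among 13315 genes of sufficient expression outside the set were Ccr3 (0.74), Tnfrsf4 (0.68), Sh2d2a (0.68), Il2rb (0.67) and Ikzf3 (0.66). Ccr3 is the eotaxin receptor carried by eosinophils, and the other four are lymphocyte genes: the co-stimulatory receptor OX40, a T cell adaptor, a chain of the interleukin-2 receptor and the transcription factor Aiolos. In the M-titled libraries Ccr3 kept 0.74, while Tnfrsf4 had 0.58, Il2rb 0.55 and Ikzf3 0.53. The genes most like S100a8 outside the set were Cyp2c65 (0.75), Iqgap2 (0.75), Sult1c2 (0.74), Pbld2 (0.73) and Il18 (0.73). Ngp did not pass the filter and could not be ranked. For the remaining genes the closest gene outside the set was looked up after values had been seen. Retnlg was closest to Ccr3 (0.83), then Alox15 (0.74), a lipoxygenase of eosinophils and resident macrophages, and Adgre4 (0.72). Csf3r was closest to Cxcr2 (0.89), S100a9 to Cxcl5 (0.76), Mmp8 to Pf4 (0.81), Mmp9 to Ppbp (0.83) and Ltf to Gabrp (0.68) and St14 (0.67), the latter an epithelial membrane protease.

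**Figure D4:**
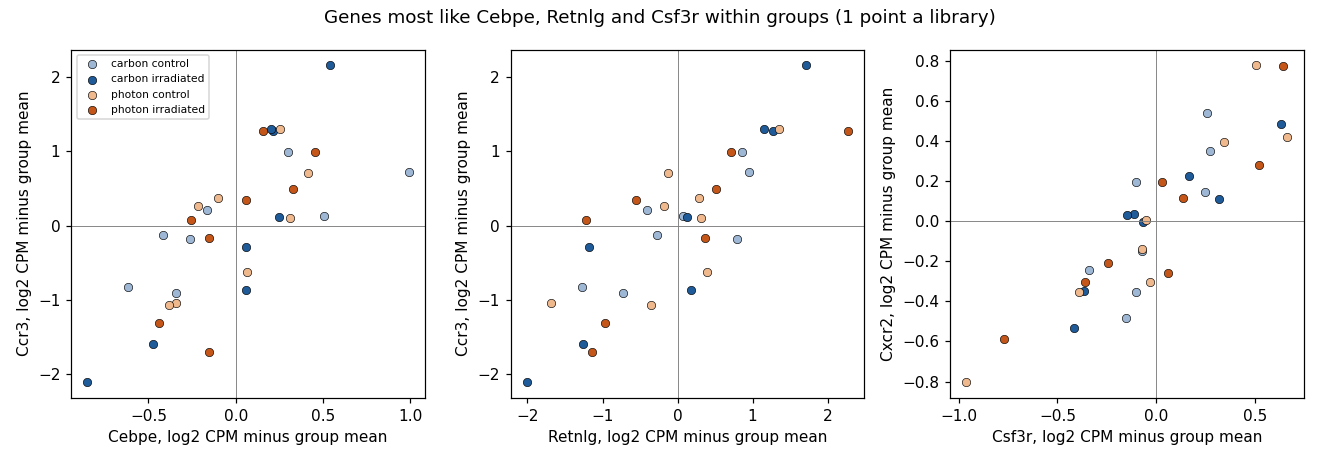
Group-centred log2 CPM of pairs of genes in the 32 libraries, coloured by group. Cebpe and Retnlg follow Ccr3 (0.74 and 0.83), and Csf3r follows Cxcr2 (0.89).

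Ccr3 was, like Cebpe and Retnlg, lowest after photons, but its median was highest in photon controls and not after carbon ions. The median was 0.994 CPM in carbon controls (0.499 to 2.03), 1.36 after carbon ions (0.290 to 6.62), 1.85 in photon controls (0.741 to 4.07) and 0.405 after photons (0.0653 to 0.901). Its log2 fold change was 1.05 (SE 0.50, adjusted p = 0.846, edgeR) for carbon ions and -2.06 (SE 0.52, adjusted p = 0.0255) for photons. The difference between beams was 3.10 (SE 0.72, adjusted p = 0.0660). The eosinophil list was fixed in the design and held Epx, Prg2, Siglecf, Ear1, Ear2, Ccr3 and Il5ra. Of its 7 genes, 4 were tested, 3 of which (Ccr3, Siglecf and Ear2) fell after photons, beside 2.10% of all genes. For carbon ions 0 passed, as for all 20474 genes, so a count of 0 for that beam says nothing of a list. Il5ra stood at 1.63 (SE 0.49, adjusted p = 0.460, edgeR). Its median was 1.52 CPM in carbon controls and 2.31 after carbon ions, where the highest library had 24.0 CPM. The list's median was 0.68 for carbon ions and -1.47 for photons. Its summed level ranged from 8.46 to 16.9 CPM in carbon controls, 9.25 to 41.3 after carbon ions, 11.4 to 34 in photon controls and 7.38 to 11.1 after photons. Of the granule genes of eosinophils on the list, Ear1 was at 0 in 32 of 32 libraries, Epx had at most 9 counts and Prg2 at most 17, whereas the ribonuclease Ear2 had 23 to 650 counts and was at 0 in no library. The T cell list, likewise fixed in the design, had a median of 0.17 for carbon ions and -0.90 for photons, and its summed level was 5.77 to 17.9 CPM in carbon controls, 5.96 to 12.3 after carbon ions, 7.5 to 14.2 in photon controls and 4.37 to 9.34 after photons. Within groups the other tested genes of the eosinophil list were less like Cebpe and Retnlg than Ccr3 was. Siglecf, Ear2 and Il5ra had correlations of 0.31, -0.02 and 0.15 with Retnlg, and of 0.33, 0.39 and 0.10 with Cebpe. Siglecf had 0.62 with S100a9 and 0.58 with S100a8. The part of eosinophils and T cells in the values of Cebpe and Retnlg was not tested.

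The rest of the neutrophil programme was given by lists fixed in the design. Of 20 other mature neutrophil genes, 15 were tested and 1 fell after photons, Cxcr2 (adjusted p = 0.0129, edgeR). The median of these genes was 0.12 for carbon ions and -0.62 for photons, where 13 of 15 values were negative. The counts of these lists stand beside 2.10% of all genes called lower after photons and 17.1% called in the arm difference. Msrb1, a methionine sulfoxide reductase, was higher in the carbon-ion arm by 0.29 (SE 0.07, adjusted p = 0.00717). Of 8 primary granule and precursor genes, 4 were tested and 1 was higher in the carbon-ion arm, the granule membrane tetraspanin Cd63 at 0.29 (SE 0.08, adjusted p = 0.0160). Of 12 further secondary and gelatinase granule genes, 11 were tested, with lysozyme Lyz2 higher in the carbon-ion arm (0.49, SE 0.12, adjusted p = 0.00601) and lipocalin Lcn2 lower (-1.40, SE 0.47, adjusted p = 0.0374). Lcn2 passed in 22 of 38 alternatives, and its value was -0.69 without photon control replicate 2. After photons 1 gene of this list fell, Mmp25 (-0.96, adjusted p = 0.00787), a membrane-bound metalloproteinase of neutrophils. The list's median was 0.35 for carbon ions and -0.73 for photons.

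Of the 8 granulocyte transcription factors other than Cebpe, 0 passed for either beam, where photons called 781 of 20474 genes and carbon ions 0; Cebpb stood at 0.39 (SE 0.15, adjusted p = 0.696, edgeR) for carbon ions. Cebpa, which acts before Cebpe in the granulocyte lineage, was higher in the carbon-ion arm by 0.47 (SE 0.08, adjusted p = 0.000419, edgeR), as was Klf4 by 0.28 (SE 0.09, adjusted p = 0.0251), and Runx1 was lower at -0.24 (SE 0.06, adjusted p = 0.00383). The list's median was 0.10 for carbon ions and -0.10 for photons. Of 10 growth factors and their receptors, 9 were tested and 1 fell after photons, the macrophage colony-stimulating factor receptor Csf1r (-0.54, adjusted p = 0.0260, edgeR). Csf1r also had the smallest p in the difference between beams, at 0.59 (SE 0.19, adjusted p = 0.197). Of 15 chemoattractants and their receptors, 14 were tested and 1 fell after photons, the complement receptor C5ar1 (-0.64, adjusted p = 0.0434, edgeR), while Cxcl1 was higher in the carbon-ion arm by 0.37 (SE 0.13, adjusted p = 0.0499), a call that held in 14 of 38 alternatives. Genes of these lists that fell after photons, and were not in the rule for naming, were named after their values were seen.

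**Figure D5:**
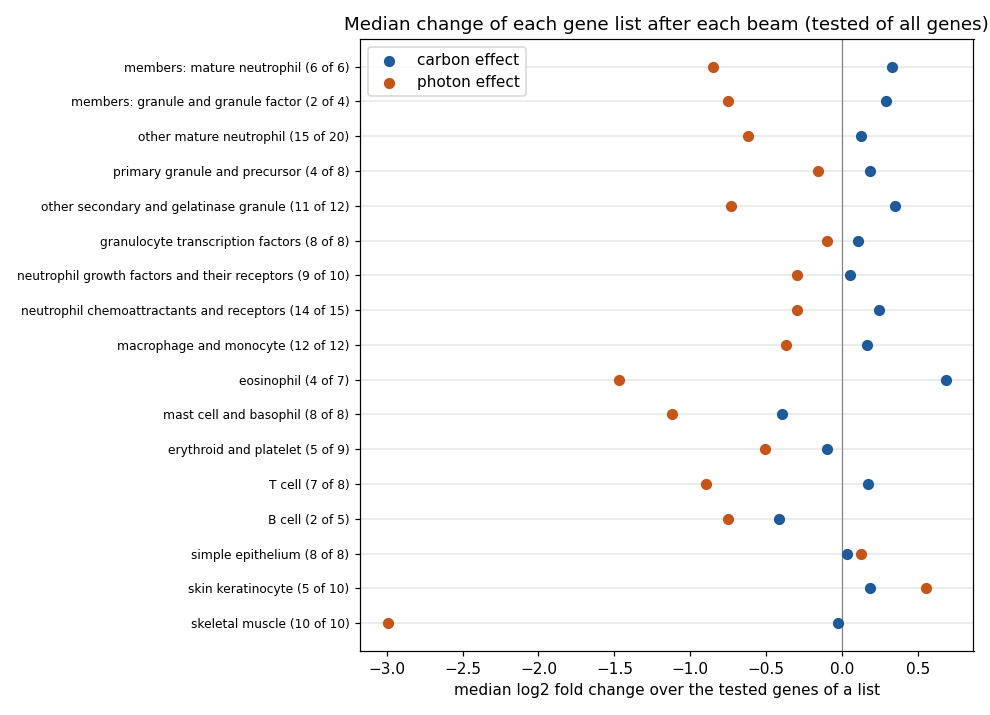
Median log2 fold change of the tested genes of each list for carbon ions and for photons, each against its own untreated tumours. The eosinophil list stands at 0.68 and -1.47 and the skeletal muscle list at -0.03 and -2.99.

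Some markers of other cells also passed the test after photons. Of 12 macrophage and monocyte genes 3, Csf1r, Itgax and Mrc1, fell after photons, with summed levels of 405 to 744 CPM against 581 to 1088 in photon controls, 631 to 1194 after carbon ions and 700 to 977 in carbon controls. In the carbon-ion arm C1qc (0.39), Cx3cr1 (0.49), C1qb (0.36) and Fcgr1 (0.51) were higher on the log2 scale, and the median of the 12 was 0.26. The 10 skeletal muscle genes had a median of -2.99 after photons with 0 passing, and their summed level had medians of 244, 348, 678 and 13 CPM in carbon controls, carbon-treated, photon controls and photon-treated libraries. Of 8 simple epithelial genes, the markers of the tumour cells, 0 passed for either beam, beside 781 of 20474 genes for photons and 0 for carbon ions, with Cldn4 at 0.50 and 0.69 for carbon ions and photons. Cldn4 (1.29), Krt19 (0.51) and Cdh1 (0.32) were higher in the carbon-ion arm. The summed level of the 8 genes was 2569 to 5732 CPM over all libraries, so the labelled tumour cells were present throughout. The keratinocyte gene Ivl (1.12) was likewise higher in the carbon-ion arm, the mast cell gene Kit was lower (-0.55), and the eosinophil gene Siglecf was higher (0.45), although its mean in untreated tumours was 5.24 CPM in the carbon-ion arm and 5.70 in the photon arm. Of the B cell list, Ighm fell with irradiation averaged over the beams (-1.05, SE 0.17, adjusted p = 0.0021). It also fell after photons, by 1.35. Of 7 tested T cell genes, Cd3d fell after photons (-2.0, adjusted p = 0.0413, edgeR) and Cd8a rose (1.23, adjusted p = 0.0453), and Cd3g had the list's smallest p in the difference between beams (1.87, adjusted p = 0.263). The corresponding genes of the platelet and muscle lists were Pf4 (1.20, adjusted p = 0.269) and Mylpf (2.91, adjusted p = 0.376). No gene of the 8 mast cell, 5 tested erythroid and platelet or 5 tested keratinocyte genes was called for either beam. Of the list genes named for the difference between the arms, Cd63, Lcn2, Cxcl1, Cx3cr1, C1qb, Fcgr1, Siglecf and Kit did not pass with the title letter as a covariate. The part of these markers in the values of the 10 genes was not tested.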

How the data were processed

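Expected counts, which are fractional, were deposited for 32 libraries. Per the submitters' processing notes, FastQC 0.12.0, Trimmomatic 0.32, RSEM 1.3.3 and the build mm10 were used; their order, the annotation and the strand setting are not given in the sources used here. Per the labels' protocols, libraries were stranded mRNA preparations. The authors' expected counts were rounded (at most 0.00403% of a total) and analysed in R 4.3.3 with edgeR 4.0.16: filterByExpr (minimum count 10, 4 groups), TMM, glmQLFit with one coefficient per group on all 32 libraries, and Benjamini-Hochberg over 20474 genes (threshold 0.05). Standard errors were derived from the F statistic. Log2 CPM used a prior count of 2. The contrasts were each beam against its own controls, their difference, their average, and the carbon-ion less the photon arm. Alternatives were DESeq2 1.42.0, other scalings, no filter, M-titled libraries alone, the title letter as a covariate and leaving out each library.

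The 10 genes, the 17 lists (159 genes, 129 tested) and the tests were chosen with earlier results of these data known. Named list genes passed in the average irradiation effect, arm difference or beam difference (at most 4 a list by smallest p), or had the list's smallest p in the beam difference. The 5 genes most like Cebpe, S100a8 and Ngp were ranked by the correlation of group-centred log2 CPM (mean log2 CPM at least 0), passing over predicted genes. Promoters came from RefSeq GRCm38.p6, with 8 of 10 genes matched, and positions from GENCODE for mm10. The scripts were tested on simulated data.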

Additional observations from a re-analysis of the deposited data

Results flagged for a closer look

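For each of the 8 tested genes in each of the 4 groups, the highest and lowest library were compared with the rest of the group, which made 32 sets, on both the log2 CPM and the CPM scale. Chance flags about 1 in 20 groups of normally distributed values, a rate that was not checked here for the CPM scale. On the log2 scale a library stood apart in 1 set: Mmp8 in carbon control replicate 1, the lowest of its group at 0.1135 CPM, with 5 counts. Without that library the carbon-ion value of Mmp8 was 0.50 on the log2 scale, against 0.64 with it. On the CPM scale a library stood apart in 6 sets, each time as the highest of its group. For Ltf these were carbon control replicate 3 at 15.54 CPM, photon control replicate 2 at 4.703 and photon-treated replicate 7 at 2.944. For Retnlg they were photon control replicate 1 at 4.592 CPM and photon-treated replicate 1 at 1.935, and for Mmp9 photon control replicate 8 at 224.4 CPM.

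The effect of carbon ions and that of photons on Cebpe differed by 1.96 on the log2 scale. It is the value by which the gene was chosen, so it is repeated here as a description.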

How the results depend on the processing

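No paired analysis was possible because the labels give no replicate numbers; those used here only name libraries. The sign of every change of the 8 genes was kept under both other scalings. Members of the set past the threshold in the arm difference numbered 4, but 2 in M-titled libraries alone and 1 with the title letter as a covariate (4 to 5 when 1 library was left out). The next 2 counts are descriptions, since those values chose the genes. In the difference between beams they numbered 1, but 2 with DESeq2 and 0 in M-titled libraries alone (1 to 2). After photons they numbered 3, against 4 with DESeq2, which added S100a9, and 2 with upper-quartile scaling or no filter, which left out Retnlg (1 to 3, the former without photon control replicate 8, which left Cebpe). For average irradiation they numbered 0 (0 to 1).

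Over all genes, average irradiation called 158, against 468 with DESeq2, 9 in M-titled libraries alone and 98 with the title letter (65 without photon control replicate 8 to 397 without photon control replicate 2). The arm difference called 3508, against 2596 in M-titled libraries alone and 2187 with the title letter (2798 to 4245). Carbon ions called 0, against 17 with DESeq2 (0 to 5, the latter without carbon-treated replicate 2). Photons called 781, against 1518 with DESeq2 and 431 with no filter (239 without photon control replicate 3 to 1656 without photon control replicate 2), and 351 higher with 430 lower became 566 and 394 with upper-quartile scaling. The difference between beams called 16, against 94 with upper-quartile scaling, 270 with DESeq2, 4 with no filter and 1 in M-titled libraries alone (5 without carbon-treated replicate 6 to 108 without photon control replicate 2), and 7 higher with 9 lower became 22 and 72 with that scaling. The cause was not tested.

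Some values near 0 changed sign. Ltf under average irradiation was 0.32 in M-titled libraries alone (-0.42 to 0.09 when 1 library was left out). Mmp9 in the arm difference was 0.15 in M-titled libraries alone and 0.15 with the title letter (-0.22 to 0.08). With 1 library left out, Mmp9 under average irradiation ranged from -0.09 to 0.22 and Mmp8 in the arm difference from -0.03 to 0.14. Depth limits Cebpe, Mmp8, Retnlg, Camp and Ngp, which had under 10 counts in at least 1 library.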
